A study of Mus musculus with 30 samples.

Results

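The expression of 10 circadian clock genes was examined in the left ventricle of 30 mice. The genes were chosen by name, as the core of the mammalian clock and one of its direct outputs, and their rows were taken from a table of 49671 genes in a peptide study and from a table of transcripts, summed to 56386 genes, in an antibody study. They comprised the activators *Arntl*, *Clock* and *Npas2*, the repressors *Per1*, *Per2*, *Per3*, *Cry1* and *Cry2*, the nuclear receptor *Nr1d1* and the output gene *Dbp*. All 10 genes were found in both tables, and all 10 averaged 10 or more counts per heart in both studies and so entered the tests.

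All mice were male, wild type and of the C57BL6J strain, which the labels also give as C57BL6, and were kept under 12 h of light and 12 h of darkness. In the peptide study, 7 mice received recombinant human Aβ42, an amyloid beta peptide, and 7 received ScrAβ42, a peptide of scrambled sequence, by daily intraperitoneal injection for 4 weeks. The labels give an age of 12 weeks at the start, whereas the study's methods give a range that begins earlier. The sample labels give the dose as 1 mg per day, whereas the study's methods give it in micrograms. In the antibody study, 8 mice received 3D6, an antibody that neutralises amyloid beta, and 8 received a control antibody of the IgG2a isotype. Both antibodies were injected weekly, in mice that were 12 weeks old at baseline. Both groups were fed a high-fat diet according to the study's methods, whereas the series description says that they were given Aβ42. The antibody mice were killed after a 5 h fast, and the glucose tolerance test of the peptide mice also followed a fast of 5 h. The peptide mice were killed either straight after a glucose tolerance test or after echocardiography, and the labels do not say which hearts came from which cohort. For the sequenced hearts, the study's text cites the scheme of the figure that shows the tolerance tests. The hour of the day at which each heart was taken is not given in the sources used here. Levels are therefore described by heart and by group and are not tied to a time of day.

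The mammalian clock is a loop of transcription factors that runs in most cells, cardiomyocytes included, with a period of about a day. The proteins encoded by *Arntl* and by *Clock* or *Npas2* pair and activate genes that carry E-box elements, among them the *Per* and *Cry* genes, *Nr1d1* and *Dbp*, and the PER and CRY proteins then block their own activators. NR1D1 represses *Arntl* through retinoic acid receptor-related orphan receptor elements (ROREs), and DBP activates genes with D-box elements. In tissues such as heart and liver, *Arntl* transcripts are known to peak at the opposite side of the day from those of *Dbp*.

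Total counts per heart ranged from 4478991 to 6015767 in the peptide study and from 6397192 to 8310478 in the antibody study. The genes of the mitochondrial genome took 12.9% to 22.2% of the counts in hearts of the peptide study and 25.9% to 37.8% in those of the antibody study. All 6 defining markers of ventricular cardiomyocytes had counts in every group, with summed levels between 38667 and 83062 CPM, the counts of a gene scaled to a fixed library size. All 5 atrial markers also had counts in every group, and their summed level ranged from 12.4 to 8417 CPM with Aβ42 (median 1158), from 3.82 to 3665 CPM with ScrAβ42 (median 10.5), from 1.05 to 668 CPM with 3D6 (median 98.5) and from 0.821 to 2776 CPM with the control antibody (median 2.88). Levels in CPM were normalised within each study, so no difference between the studies was tested. In bulk tissue, fewer cells of a type and less RNA per cell cannot be told apart.

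The genes lie on 7 chromosomes of the mouse genome (build GRCm38). *Arntl* is at chr7:113207465-113314126 and *Dbp* at chr7:45705088-45710203, both on the forward strand. *Npas2* is at chr1:39193731-39363236 and *Per1* at chr11:69095217-69109960, also on the forward strand. On the reverse strand, *Clock* is at chr5:76209868-76304792, *Per2* at chr1:91415982-91459324, *Per3* at chr4:151003652-151044665, *Cry1* at chr10:85131700-85185064, *Cry2* at chr2:92403646-92434043 and *Nr1d1* at chr11:98767932-98775333. Exons of *Nr1d1* overlap those of *Thra*, a thyroid hormone receptor, and exons of *Dbp* overlap those of *Sphk2*, a sphingosine kinase, both on the opposite strand. Over all hearts of a study, *Thra* had 7503 and 8975 counts and *Sphk2* had 1775 and 2168 counts in the peptide and the antibody study. Exons of *Cry2* overlap those of *D930015M05Rik* on the opposite strand, which had 76 and 22 counts. Those of *Arntl* overlap the antisense gene *Gm45355*, which had 0 counts in both studies. The libraries were stranded, but whether the counting used strand is not given in the sources used here. The levels of *Nr1d1*, *Dbp* and *Cry2* carry this uncertainty.

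Promoter windows of 300 bases, from 250 bases before to 50 after the start site (RefSeq, GRCm38.p6), were read for 9 of the 10 genes, 13 windows in all. *Per2* had no entry. Elements were searched on both strands, namely the E-box CACGTG, the D-box TTATGTAA, the cyclic AMP response element TGACGTCA and the RORE. The windows shown are those with a match and that of *Dbp*, given because its transcript moved most against *Arntl* across hearts of the antibody study. Capitals mark the matched element, and none is marked for *Dbp*.
Arntl, second window, chr7:113207261-113207560, forward strand: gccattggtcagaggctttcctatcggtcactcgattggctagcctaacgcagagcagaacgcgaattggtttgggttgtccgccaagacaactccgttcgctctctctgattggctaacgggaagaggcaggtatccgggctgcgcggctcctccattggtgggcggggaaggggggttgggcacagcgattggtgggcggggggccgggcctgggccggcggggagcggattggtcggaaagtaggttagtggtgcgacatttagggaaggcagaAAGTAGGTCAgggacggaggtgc
Dbp, chr7:45704997-45705296, forward strand: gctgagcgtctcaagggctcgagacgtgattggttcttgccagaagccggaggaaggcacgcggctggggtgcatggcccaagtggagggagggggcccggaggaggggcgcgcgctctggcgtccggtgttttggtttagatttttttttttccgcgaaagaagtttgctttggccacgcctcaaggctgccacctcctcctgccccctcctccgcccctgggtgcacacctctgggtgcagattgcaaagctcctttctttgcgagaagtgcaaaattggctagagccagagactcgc
Per1, first window, chr11:69098699-69098998, forward strand: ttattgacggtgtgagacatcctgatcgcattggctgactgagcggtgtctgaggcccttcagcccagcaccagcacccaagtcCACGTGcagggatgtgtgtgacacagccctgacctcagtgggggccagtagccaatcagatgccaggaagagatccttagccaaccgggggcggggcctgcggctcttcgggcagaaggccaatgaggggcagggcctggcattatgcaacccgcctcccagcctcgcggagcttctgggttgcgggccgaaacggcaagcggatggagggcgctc
Per3, chr4:151044616-151044915, reverse strand: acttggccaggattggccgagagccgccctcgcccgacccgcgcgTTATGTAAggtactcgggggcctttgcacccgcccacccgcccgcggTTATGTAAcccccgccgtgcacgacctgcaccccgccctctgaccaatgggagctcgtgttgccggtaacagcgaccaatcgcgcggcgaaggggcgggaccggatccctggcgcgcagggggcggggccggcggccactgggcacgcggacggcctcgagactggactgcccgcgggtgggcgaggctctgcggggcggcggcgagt
Cry1, chr10:85185005-85185304, reverse strand: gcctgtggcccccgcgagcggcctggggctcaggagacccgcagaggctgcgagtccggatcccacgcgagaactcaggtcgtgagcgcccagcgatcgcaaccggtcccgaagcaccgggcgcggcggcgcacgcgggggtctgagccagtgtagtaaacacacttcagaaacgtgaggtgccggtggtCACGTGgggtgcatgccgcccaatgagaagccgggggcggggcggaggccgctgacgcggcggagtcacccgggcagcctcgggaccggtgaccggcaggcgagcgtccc

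The RORE in the *Arntl* window begins 28 bases after the start site. The E-box begins 166 bases before the start site in *Per1* and 60 bases before it in *Cry1*, and the pair of D-boxes in *Per3* begins 205 and 158 bases before it. Of all 32851 windows of this length, 7.15% hold the E-box, 0.938% the D-box, 1.79% the cyclic AMP response element and 0.773% the RORE. No window of *Clock*, *Npas2*, *Cry2*, *Nr1d1* or *Dbp* held a match, which says only that these letters are not in these windows.

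Compared per kilobase of exon, *Nr1d1* and *Dbp* were among the most abundant of the clock transcripts and *Arntl* and *Npas2* the least abundant. With the control antibody, the order began with *Nr1d1* at 48.9 ± 2.21 CPM per kb (SD, n = 8) and *Dbp* at 30.9 ± 10.2 CPM per kb, whose ranges overlapped at 45.5 to 51.9 and 20.5 to 47.3 CPM per kb. *Per1* followed at 4.29 ± 1.56 and *Cry2* at 3.67 ± 0.364 CPM per kb, which also overlapped. *Clock*, *Per3*, *Per2* and *Cry1* lay between 1.74 and 2.07 CPM per kb on average, within the spread of their hearts, and *Arntl* was at 1.09 ± 0.532 and *Npas2* at 0.569 ± 0.327 CPM per kb. Among the peptide hearts, *Per1* stood beside *Nr1d1* at the top. With ScrAβ42, *Nr1d1* was at 31.7 ± 5.22 CPM per kb (SD, n = 7), *Per1* at 28.7 ± 2.63, *Dbp* at 18.3 ± 2.19, *Per2* at 15.4 ± 0.442 and *Cry2* at 11.6 ± 0.942 CPM per kb. *Nr1d1* and *Per1* overlapped in range, as did *Dbp* and *Per2*, whereas every heart had less *Cry2* than *Per2*. *Per3*, *Cry1* and *Clock* followed at 6.99 ± 0.683, 4.92 ± 0.989 and 3.24 ± 0.266 CPM per kb. *Npas2* and *Arntl* were again lowest, at 0.813 ± 0.170 and 0.713 ± 0.143 CPM per kb, and their ranges overlapped. The Aβ42 hearts gave the same order except that *Arntl* and *Npas2* changed places, and the 3D6 hearts gave the order of their controls except that *Per2* and *Cry1* did.

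Estimated counts per transcript were available for the antibody study. A single transcript held 97.3% or more of the counts of *Npas2*, *Per2*, *Cry1*, *Cry2* and *Nr1d1*. *Dbp* was mostly the protein-coding Dbp-201, at 84.2% of the gene's counts, and *Arntl* mostly Arntl-201, at 80.9% over all hearts. The share of Arntl-201 ranged from 72.0% to 100% among hearts given 3D6 and from 0% to 100% among those given the control antibody, where Arntl-203 held up to 75.4%. *Clock* was split between Clock-205 at 55.6% and Clock-201 at 36.3%, and *Per3* between Per3-201 at 56.3% and a noncoding transcript at 33.0%. The share of Per1-201 ranged from 0% to 97.4% among hearts given the control antibody and from 56.2% to 93.8% among hearts given 3D6. Shares of transcripts with most of their sequence in common are uncertain, and all further values are for whole genes.

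The first comparison addressed whether 4 weeks of Aβ42 altered cardiac gene expression relative to ScrAβ42. Of 11985 genes tested, 0 had an adjusted p-value under 0.05 (0%) in the quasi-likelihood test of edgeR after Benjamini-Hochberg adjustment, and 780 (6.51%) had an unadjusted p-value under 0.05. DESeq2 called 12 genes at an adjusted p-value under 0.05. None of the 10 clock genes was called by either tool, and 0 of the 10 had an unadjusted p-value under 0.05. The groups overlapped in CPM for all 10, where 11 of all genes tested (0.0918%) did not overlap. The log2 fold change was above 0 for 7 of the 10, against 50.5% of all genes tested, with a median of 0.07 over the 10 genes and 0.0015 over all genes. The gene with the smallest p-value of all was *Pla2g4e*, a phospholipase, at 14.5 ± 0.956 CPM with Aβ42 and 9.86 ± 1.19 CPM with ScrAβ42 (log2 fold change 0.55, adjusted p = 0.0910).

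Among the activators, *Arntl*, which encodes the partner shared by CLOCK and NPAS2, ranged from 2.20 to 8.02 CPM with Aβ42 (median 6.18) and from 3.87 to 7.01 CPM with ScrAβ42 (median 5.03). The lowest and the highest heart of the study were both from the Aβ42 group, and 6 of 7 Aβ42 hearts lay above the ScrAβ42 median. The log2 fold change was 0.12 (SE 0.22, 95% interval -0.36 to 0.59, adjusted p = 0.951). *Clock*, the partner of ARNTL, ranged from 39.2 to 48.2 CPM with Aβ42 and from 38.9 to 49.4 CPM with ScrAβ42, with medians of 41.7 and 45.3 CPM, so that the ScrAβ42 range enclosed the Aβ42 range (log2 fold change -0.04, SE 0.067). *Npas2*, a paralogue of *Clock*, ranged from 2.38 to 4.78 CPM with Aβ42 and from 2.32 to 4.65 CPM with ScrAβ42 (log2 fold change -0.14, SE 0.19). These *Npas2* levels rested on 12 to 26 counts per heart, and those of *Arntl* on 16 to 42.

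Among the repressors, *Cry1* and *Cry2*, whose proteins block ARNTL and CLOCK most directly, had the smallest unadjusted p-values of the arm. *Cry1* ranged from 16.9 to 21.7 CPM with Aβ42 (median 18.2) and from 13.1 to 23.05 CPM with ScrAβ42 (median 15.5). All 7 Aβ42 hearts lay above the ScrAβ42 median, but the ScrAβ42 range enclosed them (log2 fold change 0.19, SE 0.12, 95% interval -0.05 to 0.44, adjusted p = 0.807). The heart labelled ScrAbeta42_3449 alone lay above all Aβ42 hearts, and without it the log2 fold change was 0.29 (SE 0.091, unadjusted p = 0.0061 and adjusted p = 0.743 by edgeR). That heart was singled out after its value was seen, so the smaller p-value lends the difference no weight. With each heart left out in turn, the log2 fold change ran from 0.14 to 0.29. *Cry2* ranged from 72.8 to 85.3 CPM with Aβ42 (median 81.6) and from 63.3 to 82.3 CPM with ScrAβ42 (median 74.95). Above every ScrAβ42 heart lay 3 of the 7 Aβ42 hearts, and the log2 fold change of *Cry2* was 0.12 (SE 0.063, 95% interval -0.02 to 0.25, adjusted p = 0.783).

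The *Per* genes encode the period proteins that bind the cryptochromes. *Per1* ranged from 151 to 195 CPM with Aβ42 and from 143 to 181 CPM with ScrAβ42 (log2 fold change 0.07, SE 0.077). *Per2* was the most even clock gene in the ScrAβ42 hearts, between 85.4 and 93.0 CPM, and ranged from 80.8 to 131 CPM with Aβ42 (log2 fold change 0.06, SE 0.095). The highest *Per2* level came from the heart labelled Abeta42_3457, and without that heart the log2 fold change was -0.04. *Per3* ranged from 56.1 to 82.6 CPM with Aβ42 and from 57.9 to 75.1 CPM with ScrAβ42 (log2 fold change 0.01, SE 0.085), and its direction changed when any of 5 single hearts was left out.

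*Nr1d1*, the repressor of *Arntl*, ranged from 64.1 to 131 CPM with Aβ42 (median 99.7) and from 81.2 to 129 CPM with ScrAβ42 (median 94.6). Its log2 fold change was -0.01 (SE 0.14, 95% interval -0.31 to 0.30). *Dbp*, a PAR bZIP factor driven by ARNTL and CLOCK, ranged from 51.9 to 77.2 CPM with Aβ42 (median 56.4) and from 43.1 to 62.0 CPM with ScrAβ42 (median 56.2). The hearts labelled Abeta42_3457 and Abeta42_3458 lay above every ScrAβ42 heart, while the medians of the groups were close (log2 fold change 0.15, SE 0.11, 95% interval -0.08 to 0.37, adjusted p = 0.848).

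**Figure D1:**
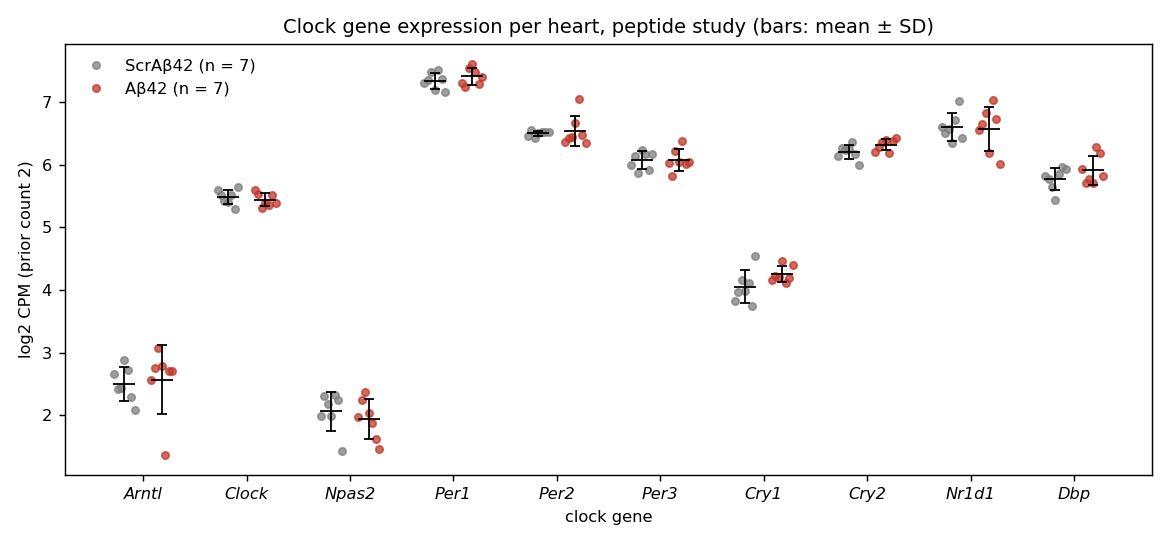
Log2 CPM (y axis, prior count 2) of the 10 clock genes (x axis) in each heart of the peptide study, with ScrAβ42 in grey and Aβ42 in red; horizontal bars give the mean and error bars the SD of 7 hearts. The groups overlap for every gene, and 1 Aβ42 heart lies apart at the lower end of *Arntl*, at a log2 CPM of 1.36.

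The second comparison addressed whether neutralising amyloid beta with 3D6 altered cardiac gene expression relative to the control antibody. Of 12274 genes tested, 0 had an adjusted p-value under 0.05 (0%) with edgeR after Benjamini-Hochberg adjustment, and 447 (3.64%) had an unadjusted p-value under 0.05. DESeq2 also called 0 genes. None of the 10 clock genes was called by either tool, and 0 of the 10 had an unadjusted p-value under 0.05. The groups overlapped in CPM for all 10 clock genes, as for all other genes tested (0% without overlap). The log2 fold change was above 0 for 7 of the 10, against 47.4% of all genes tested, with a median of 0.08 over the 10 genes and -0.0098 over all genes. The smallest p-value of all belonged to *Gm38393*, at 2.21 ± 0.965 CPM with 3D6 and 0.942 ± 0.465 CPM with the control antibody (log2 fold change 1.23, adjusted p = 0.946).

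*Arntl* ranged from 3.52 to 10.9 CPM with 3D6 (median 7.23) and from 3.97 to 14.0 CPM with the control antibody (median 7.26). The groups were interleaved, and the log2 fold change was -0.19 (SE 0.27, 95% interval -0.76 to 0.38, adjusted p = 0.946). *Clock* ranged from 22.1 to 46.8 CPM with 3D6 (median 25.5) and from 21.1 to 43.9 CPM with the control antibody (median 26.0). In *Clock*, 3 hearts given 3D6 (4, 7 and 12) and 1 given the control antibody (8) lay above 41 CPM and the remaining hearts below 35 CPM (log2 fold change 0.14, SE 0.19). *Npas2* ranged from 0.992 to 4.66 CPM with 3D6 and from 1.09 to 5.26 CPM with the control antibody, on 7 to 39 counts per heart (log2 fold change 0.11, SE 0.34). Its 95% interval, from -0.61 to 0.83, was the widest of the 10 genes.

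Of the repressors, *Cry2* again had the smallest unadjusted p-value. It ranged from 22.1 to 36.7 CPM with 3D6 (median 24.7) and from 19.6 to 26.4 CPM with the control antibody (median 22.9). With 3D6, 7 of 8 hearts exceeded the median of the control hearts and 3 exceeded all of them (log2 fold change 0.18, SE 0.10, 95% interval -0.04 to 0.40, adjusted p = 0.946). Without 3D6 heart 4, the log2 fold change of *Cry2* was 0.10 (SE 0.088). *Cry1* ranged from 4.15 to 8.53 CPM with 3D6 and from 3.71 to 8.66 CPM with the control antibody (log2 fold change -0.0028, SE 0.18).

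*Per1* ranged from 19.4 to 34.6 CPM with 3D6 and from 13.7 to 36.9 CPM with the control antibody (log2 fold change 0.12, SE 0.20). *Per2* ranged from 6.64 to 11.5 CPM with 3D6 and from 5.15 to 18.95 CPM with the control antibody (log2 fold change -0.13, SE 0.24). For each *Per* gene, the control range enclosed every heart given 3D6. The contrast was widest in *Per3*, which ranged only from 16.6 to 22.1 CPM with 3D6 (median 18.6) but from 7.48 to 33.7 CPM with the control antibody (median 14.7), with an SD of log2 CPM of 0.14 and 0.78. The difference in spread was not tested. The log2 fold change of *Per3* was 0.08 (SE 0.25).

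*Nr1d1* was the steadiest clock gene, between 149 and 168 CPM with 3D6 (median 159) and between 140 and 160 CPM with the control antibody (median 153). The level in 4 hearts given 3D6 exceeded that of all control hearts (log2 fold change 0.07, SE 0.063, 95% interval -0.06 to 0.20, adjusted p = 0.946). *Dbp* ranged from 52.5 to 139 CPM with 3D6 (median 101) and from 61.3 to 142 CPM with the control antibody (median 85.3). Its groups overlapped over most of their length, and the log2 fold change was 0.06 (SE 0.22, 95% interval -0.40 to 0.52).

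**Figure D2:**
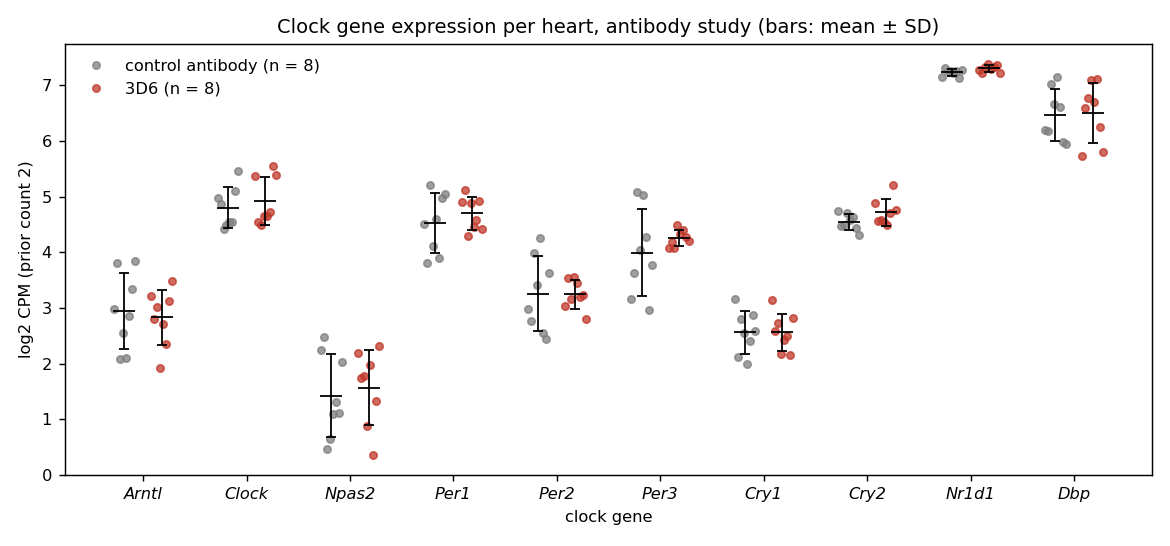
Log2 CPM (y axis, prior count 2) of the 10 clock genes (x axis) in each heart of the antibody study, with the control antibody in grey and 3D6 in red; horizontal bars give the mean and error bars the SD of 8 hearts. The groups overlap for every gene, *Nr1d1* is tight in both groups, and *Per2* and *Per3* spread further with the control antibody.

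**Figure D3:**
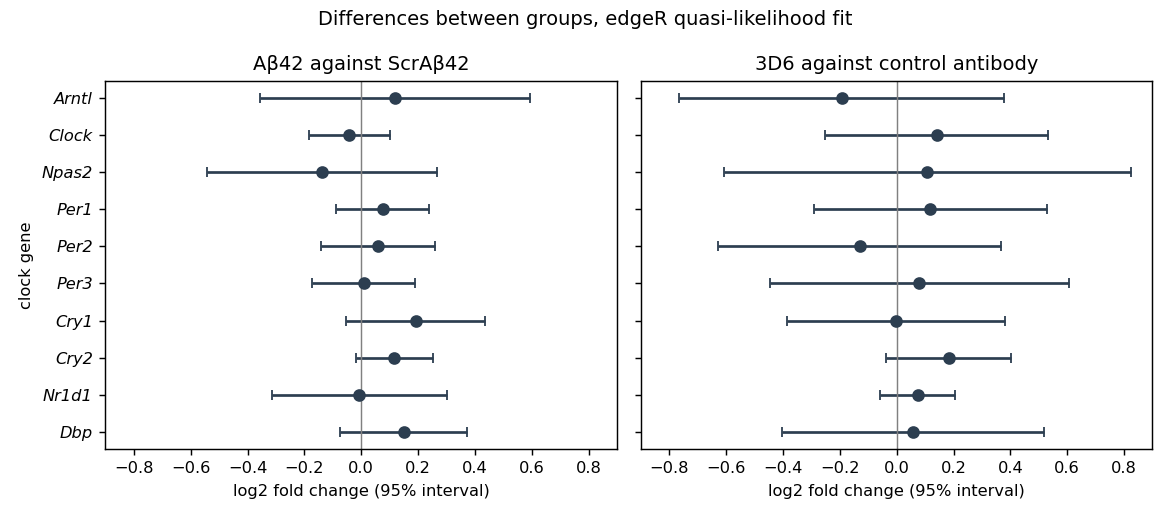
Log2 fold change (x axis) of each clock gene (y axis) with its 95% interval, for Aβ42 against ScrAβ42 (left) and 3D6 against the control antibody (right). Every interval includes 0, and the intervals are wider in the antibody study for 9 genes, *Nr1d1* being the exception.

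The spread between hearts of one group differed among the clock genes and between the studies. The median SD of log2 CPM within groups was 0.469 for the clock genes and 0.282 for all genes tested in the antibody study, against 0.191 and 0.233 in the peptide study. *Npas2* had the highest SD in the antibody study (0.711), followed by *Arntl* (0.603), *Per3* (0.562), *Per2* (0.514) and *Dbp* (0.502). Counting error alone would give an SD of about 0.372 for *Npas2* and 0.213 for *Arntl* but only 0.0590 for *Dbp*, whose counts ran from 393 to 993 per heart. *Nr1d1* went the other way, with an SD of 0.0649, the fourth smallest of all 12274 genes and near its counting error of 0.0439. In the peptide study, *Nr1d1* had an SD of 0.298, *Arntl* of 0.436, *Dbp* of 0.207, *Clock* of 0.114 and *Cry2* of 0.106. The SD of *Npas2* there, 0.316, was near its counting error of 0.336. These counting errors are for raw counts, whereas the prior count of 2 narrows the SD of log2 CPM at low counts.

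The opposing arms of the loop were then compared across hearts, using all 45 pairs of clock genes in each study. Pearson correlations of log2 CPM were tested by permutation and p-values were adjusted over the 90 pairs. Of the 45 pairs in the antibody study, 8 passed an adjusted p-value of 0.05, 4 negative and 4 positive, and in the peptide study 0 of 45 passed, with 8 at an unadjusted p-value under 0.05. By Spearman's rho, 7 and 0 pairs passed, and by Pearson's r 2 and 0 passed once the mitochondrial share of counts was regressed out of both genes. The sign of r was shared by 28 of the 45 pairs.

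*Arntl* and *Dbp* showed the strongest relation. Across the 16 hearts of the antibody study, r was -0.875 (permutation p = 1e-05, the smallest that the permutations can give, adjusted p = 0.0009) and rho was -0.876 (permutation p = 3e-05, adjusted p = 0.0027). Without the 2 hearts farthest from the median of *Arntl*, r was -0.853. The relation held within both groups, with r = -0.871 in the 8 hearts given 3D6 (exact permutation p = 0.00489) and r = -0.924 in the 8 control hearts (exact permutation p = 0.00191). In the 4 hearts with the highest *Dbp*, at 130 to 142 CPM (3D6 20 and 24, control antibody 18 and 22), *Arntl* was between 3.52 and 4.82 CPM.

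The other pairs that passed in the antibody study joined the same arms. *Arntl* correlated with *Npas2* (r = 0.749, adjusted permutation p = 0.0285) and with *Clock* (r = 0.687, adjusted permutation p = 0.0428). Across the arms, *Dbp* correlated negatively with *Clock* (r = -0.821, adjusted permutation p = 0.00675) and with *Npas2* (r = -0.704, adjusted permutation p = 0.0428), as did *Arntl* with *Per3* (r = -0.677, adjusted permutation p = 0.0428). *Per3* correlated positively with *Per2* (r = 0.706) and with *Dbp* (r = 0.667), both at an adjusted permutation p of 0.0428. The relation of *Per2* with *Per3* did not pass by rho (0.579, adjusted permutation p = 0.177) and dropped to r = 0.484 without its 2 outermost hearts. No pair with *Nr1d1*, *Per1*, *Cry1* or *Cry2* passed, and *Nr1d1* had r = -0.195 against *Arntl* (permutation p = 0.468) and r = 0.360 against *Dbp* (permutation p = 0.172).

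**Figure D4:**
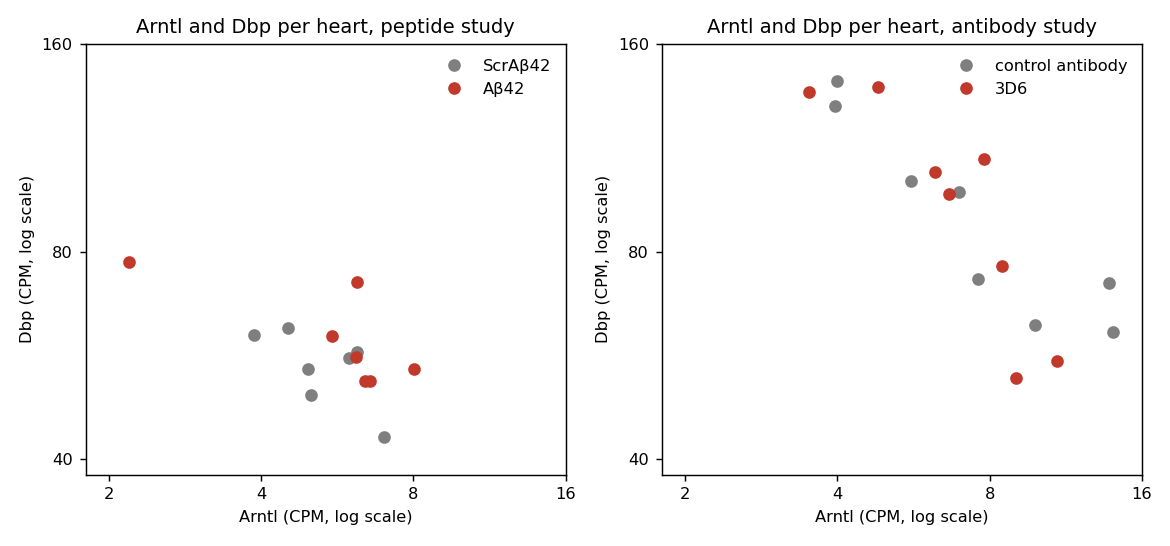
*Dbp* (y axis) against *Arntl* (x axis), both in CPM on log scales, for each heart of the peptide study (left, ScrAβ42 grey, Aβ42 red) and of the antibody study (right, control antibody grey, 3D6 red). On the right, both groups run along the same falling band (r = -0.875), and on the left 1 Aβ42 heart lies apart at 2.20 CPM of *Arntl* and 77.2 CPM of *Dbp*.

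In the peptide study, the same pair gave r = -0.636 over 14 hearts (permutation p = 0.0168, adjusted p = 0.138) and rho = -0.609 (permutation p = 0.0232, adjusted p = 0.177). Without the 2 hearts farthest from the median of *Arntl*, r was -0.277, and without Abeta42_3457 alone it was -0.338 (permutation p = 0.256). Within the groups, r was -0.748 in 7 Aβ42 hearts (exact permutation p = 0.0252) and -0.669 in 7 ScrAβ42 hearts (exact permutation p = 0.0940). *Arntl* and *Per2* had r = -0.736 (permutation p = 0.0250, adjusted p = 0.169), which was -0.006 without the 2 hearts farthest from the median of *Arntl*. With the repressor *Cry2*, *Arntl* correlated in the other direction, at r = 0.563 (permutation p = 0.038, adjusted p = 0.211) and rho = 0.657 (permutation p = 0.0129, adjusted p = 0.129). Without the same 2 hearts, that r was 0.538. Abeta42_3457 combined the lowest *Arntl* of the study, at 2.20 CPM, with the highest *Dbp*, *Nr1d1*, *Per2* and *Per3*, at 77.2, 131, 131 and 82.6 CPM. It also had the lowest mitochondrial share of counts, at 12.9%, and the highest normalisation factor of the study, at 1.22. Its *Arntl* level rested on 16 counts, and its score of the atrial markers was 1.38, where the study ran from -0.954 to 1.52.

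The ratio of *Dbp* to *Arntl* in CPM ordered the hearts by the balance of these 2 genes alone, as a description without a test. Among antibody hearts, it ran from 4.36 in control heart 8 to 38.8 in 3D6 heart 20, an 8.89-fold range. It spanned 5.10 to 38.8 with 3D6 (median 14.3) and 4.36 to 35.5 with the control antibody (median 11.9), and both groups had hearts at both ends. In 14 of the 16 hearts, *Arntl* and *Dbp* lay on opposite sides of their medians. Among peptide hearts, the ratio ran from 6.74 to 35.1 with Aβ42 (median 9.16) and from 6.15 to 15.7 with ScrAβ42 (median 9.87), and 8 of the 14 hearts had the 2 genes on opposite sides. Apart from Abeta42_3457, no peptide heart exceeded a ratio of 15.7.

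**Figure D5:**
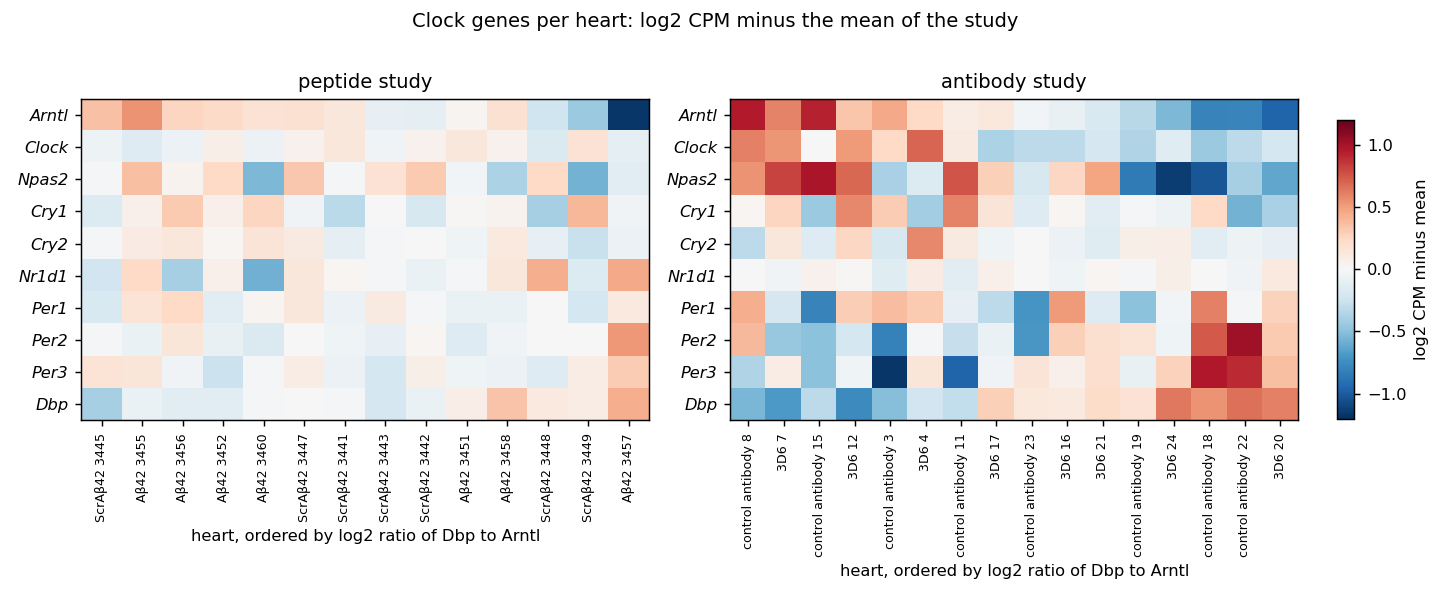
Log2 CPM of each clock gene (rows) in each heart (columns) minus the mean of its study, from blue (lower) to red (higher), for the peptide study (left) and the antibody study (right); hearts are ordered by the log2 ratio of *Dbp* to *Arntl*, which fixes the opposite shading of these genes. In the antibody study, hearts of both groups are found along the whole order from 4.36 to 38.8.

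Relations of the clock genes with measures of the library were also computed. In a family of 40 relations of clock genes with the mitochondrial share or an atrial marker score, chosen after the data were seen, only *Clock* with the mitochondrial share in the antibody study passed (r = 0.781, adjusted permutation p = 0.0064). *Dbp* and *Arntl* had r = -0.691 and r = 0.638 there (adjusted permutation p = 0.0568 and 0.0777), and r = -0.625 and r = 0.693 in the peptide study (adjusted permutation p = 0.115 and 0.0777). With the mitochondrial share regressed out of both genes, the r of *Arntl* with *Dbp* was -0.780 in the antibody study (permutation p = 0.00024) and -0.361 in the peptide study (permutation p = 0.204). Of the 8 antibody pairs that passed, 2 passed again after this step, adjusted over the same 90 pairs, namely *Arntl* with *Dbp* (adjusted permutation p = 0.0216) and with *Npas2* (r = 0.743, adjusted permutation p = 0.0333). The r of *Dbp* was then -0.701 with *Npas2*, -0.623 with *Clock* and 0.485 with *Per3*, that of *Arntl* was 0.392 with *Clock* and -0.515 with *Per3*, and that of *Per2* with *Per3* was 0.642, with adjusted permutation p-values from 0.0828 to 0.431. The atrial marker score had r = 0.632 with *Dbp* in the peptide study (adjusted permutation p = 0.102) and r = -0.276 in the antibody study (adjusted permutation p = 0.568). Between Aβ42 and ScrAβ42, the log2 fold change of *Dbp* was 0.0053 (SE 0.11) when that score entered the fit and 0.15 without it.

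Genes outside the clock that followed *Arntl* were ranked by the weaker of the r values of the studies, with group means removed, among 9001 genes of at least 5 CPM in both. This is a description over 14 and 16 hearts, which share depth and mitochondrial share as well as biology, and carries no test. The 8 genes most like *Arntl* were *Dnajc16* (0.859 and 0.868 in the peptide and the antibody study), *Arhgef6*, *Ankrd33b*, *Rapgef4*, *Rbl2*, *Ldb3*, *Kpnb1* and *Kat2b*. The 8 most opposite were *Cidea* (-0.798 and -0.787), *Upf3b*, *Ifi27*, *Slc1a5*, *Csad*, *Prdx4*, *Dbi* and *Tubgcp3*. On the same scale, *Dbp* (-0.711 and -0.876) would have held place 10 among the most opposite genes and *Per2* (-0.754 and -0.600) place 62, while *Per3* stood at place 582 and *Nr1d1* at place 1254, and *Cry2*, *Clock* and *Cry1* stood at places 2163, 2251 and 2288 among the genes most like it. *Per1* was at place 2055 of the opposite genes. *Npas2* averaged under 5 CPM in both studies and was not ranked. Without Abeta42_3457, the heart with the lowest *Arntl*, a step chosen after the data were seen, 2 of the 8 most like genes (*Rbl2* and *Dnajc16*) and 1 of the 8 most opposite (*Dbi*) were still among the first 8. *Cidea* then had r = -0.275 in the peptide study and place 818, *Dbp* had r = -0.561 and place 77, and *Per2* had r = 0.049 and place 2716. *Per3* (r = 0.379), *Per1* (0.294) and *Nr1d1* (0.030) then held places 5359, 4658 and 2568 of the opposite genes. *Clock* (r = -0.363), *Cry1* (-0.349) and *Cry2* (0.604) held places 5434, 5316 and 2077 among the genes most like *Arntl*. *Cidea* is known from fat cells, and the summed level of 5 adipocyte markers ranged from 0.397 to 521 CPM with Aβ42, from 0 to 48.6 CPM with ScrAβ42 and up to 9.86 CPM in the antibody study. Their part in the ranking was not tested.

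Other genes of the clock loop came from a list of 19, which holds kinases, ligases and further transcription factors of the loop. With Aβ42 against ScrAβ42, 0 of the 17 tested were called by edgeR, 1 had an unadjusted p-value under 0.05 in the upward direction (3.59% of all genes tested) and 0 in the downward direction (2.92% of all genes tested). That gene was *Ciart*, a repressor of the loop, at 20.0 CPM with Aβ42 and 13.8 CPM with ScrAβ42 (log2 fold change 0.53, SE 0.14, adjusted p = 0.589 by edgeR with Benjamini-Hochberg adjustment). With 3D6 against the control antibody, 0 of 17 were called by edgeR, 1 had an unadjusted p-value under 0.05 upward (1.32% of all genes) and 2 downward (2.32% of all genes). *Btrc*, a subunit of a ubiquitin ligase that targets PER proteins, had a log2 fold change of 0.27 (SE 0.10). *Nfil3*, which represses the D-box genes that DBP activates, had one of -0.33 (SE 0.12), and *Timeless* one of -0.31 (SE 0.14). The same quantities for *Ciart* in the antibody study were 4.30 and 4.47 CPM (log2 fold change -0.06).

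Among 11 clock-controlled genes, all tested, 0 were called by edgeR in either study. With Aβ42, 0 had an unadjusted p-value under 0.05, and the smallest belonged to the transcription factors *Klf10* (log2 fold change 0.25, SE 0.14) and *Klf15* (0.14, SE 0.083). With 3D6, 1 of 11 had an unadjusted p-value under 0.05, namely *Wee1*, a cell cycle kinase, upward (1.32% of all genes tested), at 7.91 CPM with 3D6 and 5.34 CPM with the control antibody (log2 fold change 0.57, SE 0.19, adjusted p = 0.946 by edgeR with Benjamini-Hochberg adjustment).

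Further lists covered signals that can reset peripheral clocks, namely glucocorticoids, immediate early responses and temperature. None of their genes was called by edgeR in either study. An unadjusted p-value under 0.05 was found for 6.51% of all genes tested with Aβ42 and for 3.64% with 3D6. Of 10 glucocorticoid-responsive genes in the peptide study, 2 had an unadjusted p-value under 0.05 upward, *Fkbp5* (log2 fold change 0.26, SE 0.11) and *Mt1* (0.32, SE 0.12), and 1 downward, *Zbtb16* (-0.33, SE 0.097), whereas 0 of 10 did so in the antibody study, where the smallest p-values were those of *Sgk1* (-0.22, SE 0.13) and *Mt1* (-0.27, SE 0.22). Of the immediate early genes, 1 of 10 tested reached this level with Aβ42, *Jun*, at 45.5 CPM against 63.6 CPM with ScrAβ42 (log2 fold change -0.48, SE 0.083, adjusted p = 0.119 by edgeR with Benjamini-Hochberg adjustment). With 3D6, 3 of 11 did so, *Fos* (log2 fold change 0.86, SE 0.35), *Ier2* (-0.35, SE 0.14) and *Atf3* (-0.60, SE 0.28). Of 8 temperature-responsive genes, *Hspa8*, a constitutive chaperone, was the single one at this level in the peptide study (log2 fold change -0.25, SE 0.085), and 0 of 8 were found in the antibody study, where *Hspa1a* (-0.58, SE 0.28) and *Hsp90aa1* (-0.15, SE 0.12) had the smallest p-values.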

How the data were processed

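Total RNA of the left ventricle was sequenced from stranded libraries in 30 mice. According to the study's methods, reads were trimmed and mapped with Salmon to the GENCODE mouse transcriptome, and the submitters' processing notes name the build GRCm38. The files that the authors deposited hold whole-number, unnormalised read counts by Ensembl gene for the peptide hearts. For the antibody hearts, they deposited unnormalised estimated counts by Ensembl transcript, which were here summed to genes through a GENCODE annotation of GRCm38 and rounded. A further 1 count column of the peptide study could be tied to no labelled mouse and was left out.

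Groups followed the sample labels, and each heart came from a separate mouse. The studies were fitted separately with edgeR 4.0.16 in R 4.3.3 (TMM normalisation, an average of 10 or more counts per heart, quasi-likelihood test, two-sided, Benjamini-Hochberg adjustment over all genes tested at 0.05). The 95% intervals of fold changes were derived from the same test. Log2 CPM used a prior count of 2. Correlations across hearts used 100000 permutations, or exact permutation within a group, two-sided, with scipy 1.17.1. The fit was tested on simulated data in which 200 genes were shifted by 1 on the log2 scale. It recovered 82% of them for the peptide groups (8 false calls, 11985 genes) and 84% for the antibody groups (11 false calls, 12274 genes). No hearts of a group matched each other within counting noise.

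The 10 genes and all lists were chosen with earlier results of these data known. Named were the 10 genes, the genes of each list with an unadjusted p-value under 0.05 or else the 2 with the smallest, the 8 genes most like and the 8 most opposite to *Arntl*, and the gene with the smallest p-value of each comparison. Alternatives were DESeq2 1.42.0, RLE size factors, the total count as scale, other filters and prior counts, the mitochondrial share or the atrial marker score as a covariate, and each heart left out in turn.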

Additional observations from a re-analysis of the deposited data

Results flagged for a closer look

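The lowest *Arntl* value of the Aβ42 group was set apart from the others. The heart labelled Abeta42_3457 had a log2 CPM of 1.36, the next heart 2.56, and this gap was 0.702 of the whole range, above the critical value of 0.568 for 7 samples. The log2 ratio of *Dbp* to *Arntl* in the same heart was 4.91, the next 3.47, with a gap of 0.651 of the range. *Npas2* in the heart labelled ScrAbeta42_3449 had a log2 CPM of 1.43, the next heart 1.99, with a gap of 0.617 of the range, on a gene whose spread was near its counting error. These were 3 of 44 groups of values examined, where chance alone sets apart about 1 in 20 if the groups are independent. They were not, as the *Arntl* level and the ratio in Abeta42_3457 rest on the same *Arntl* count.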

How the results depend on the processing

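The clock genes called numbered 0 under every alternative run in both studies. The count over all genes was 0 in the main peptide comparison, 12 with DESeq2, and 0 to 3 when single hearts were left out, with 3 without Abeta42_3452 and 1 without ScrAbeta42_3448. In the antibody study, it was 0 in every such fit. Of the clock fold changes recomputed under other settings, 5 of 70 changed direction in the peptide study and 7 of 69 in the antibody study, and the lowest adjusted p-value among them, by edgeR or DESeq2, was 0.540 and 0.720. In the peptide study, an unadjusted edgeR p-value under 0.05 was found for *Cry1* without ScrAbeta42_3449 (0.0061) and with an atrial marker covariate (0.039), and for *Cry2* without ScrAbeta42_3447 (0.037). A covariate for the atrial markers in the peptide study gave a log2 fold change of 0.0222 for *Clock*, -0.0573 for *Per3*, 0.00533 for *Dbp*, 0.00728 for *Per2*, -0.230 for *Nr1d1*, 0.262 for *Arntl* and 0.290 for *Cry1*. That of *Nr1d1* was 0.0362 scaled to the total count, 0.00053 with at least 10 counts in every heart and 0.0068 with the mitochondrial share as a covariate. With that covariate in the antibody study, the log2 fold change was -0.0600 for *Clock*, -0.0217 for *Npas2*, 0.0345 for *Per2*, -0.412 for *Arntl*, 0.421 for *Per3* and 0.313 for *Dbp*, none of them called. That of *Cry1* was 0.0034 with DESeq2, 0.0024 with RLE size factors, 0.0074 without a filter and 0.00065 with at least 10 counts in every heart, where *Npas2* gave no value. The cause of these changes was not tested. When single hearts were left out of the peptide study, *Per2* ran from -0.0422 to 0.0915, *Per3* from -0.0471 to 0.0487, *Nr1d1* from -0.0939 to 0.0742, *Arntl* from 0.0258 (without Abeta42_3455) to 0.273 (without Abeta42_3457), *Npas2* from -0.233 to -0.0648, *Dbp* from 0.0804 (without Abeta42_3457) to 0.183, *Clock* from -0.0734 to -0.0148, *Per1* from 0.0389 to 0.104 and *Cry1* from 0.141 to 0.292, and in the antibody study *Npas2* ran from -0.0128 to 0.321, *Per2* from -0.227 to 0.0600, *Per3* from -0.0330 to 0.276, *Cry1* from -0.105 to 0.105, *Dbp* from -0.0356 to 0.174, *Arntl* from -0.301 to -0.0381, *Clock* from 0.0373 to 0.257, *Per1* from 0.0360 to 0.233 and *Cry2* from 0.101 to 0.218. The r of *Arntl* with *Dbp* ran from -0.787 to -0.338 in the peptide study, where it was -0.361 with the mitochondrial share regressed out, an alternative chosen after seeing the data, and from -0.905 to -0.857 in the antibody study. Regressing that share out of every pair, also chosen after seeing the data, left 2 of the 8 antibody pairs that passed. No paired analysis was possible because no mouse number occurs in both groups of a comparison. Counts per heart limit *Npas2* most (12 at the lowest in peptide hearts and 7 in antibody hearts), followed by *Arntl* in the peptide study (median 29.5) and *Cry1* in the antibody study (median 38.5).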
